A study of Mus musculus with 16 samples.

Results

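The NMDA receptor subunit genes Grin1, Grin2a, Grin2b, Grin2c, Grin2d and Grin3a were examined in hippocampal RNA of mice exposed to inescapable foot shock. They were chosen by gene name among 18287 gene names, and 31 of the 80137 transcripts quantified carry one of these 6 names: 13 of Grin1, 3 of Grin2a, 6 of Grin2b, 2 of Grin2c, 3 of Grin2d and 4 of Grin3a. All mice were male wild type C57BL/6 mice of 3 months, with 4 mice in each of 4 groups and both hippocampi of a mouse pooled into 1 library. In the homecage group (HC) mice had no shocks, trials or handling. Control mice (Ctrl) were put into the shuttle box on the first day without inescapable shocks, and then went through 30 escape trials at 0.4 mA. Learned helpless mice (LH) and mice that did not become helpless (NLH) both received 180 inescapable shocks of 0.4 mA, and 24 h later the same 30 escape trials. They were separated afterwards by their escape behavior. A shock of a trial ended on escape, so mice that failed more often also received more shock in the test. Tissue was taken 3 h after the test. The Ctrl vs. HC comparison covers handling, exposure to the box and the escape trials together, NLH vs. Ctrl and LH vs. Ctrl ask what follows inescapable shock in resilient and in helpless mice, and LH vs. NLH asks how helpless mice differ from resilient ones.

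NMDA receptors are glutamate-gated channels built of 4 subunits, which pass calcium when glutamate and a co-agonist, glycine or D-serine, are bound while the membrane is depolarized. Grin1 encodes GluN1, the obligatory subunit that binds the co-agonist. Grin2a to Grin2d encode the GluN2 subunits, which bind glutamate and set how fast the channel closes, and Grin3a encodes GluN3A, which lowers calcium entry. In the adult hippocampus GluN2A and GluN2B are the main partners of GluN1, GluN2B being the earlier and slower form during development, while GluN2C is best known from cerebellum and glia and GluN2D from interneurons.

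GluN1 itself is spliced, and the choice of its cassettes sets properties of the receptor. The 8 coding Grin1 transcripts are the 8 combinations of cassette N1 in or out, cassette C1 in or out, and C2 or C2′ as the last coding segment. All lie on the minus strand of chromosome 2 in build GRCm38, which is mm10, within Grin1 (ENSMUSG00000026959.13) at chr2:25291181-25319187, and all 3 cassettes shown are coding exons or coding parts of an exon. N1, at chr2:25311343-25311405, has 63 bases and 21 codons and adds a basic loop to the extracellular amino-terminal domain. C1, at chr2:25294438-25294548, has 111 bases and 37 codons and lies in the intracellular tail. C2, at chr2:25292371-25292484, has 114 bases and 38 codons, and its place is taken by C2′, of 22 codons at chr2:25292063-25292128, in the other transcripts. The sequences below are those of the GENCODE vM21 transcripts, 5′ to 3′ in the sense of Grin1. In N1 the capitals mark its 6 lysine or arginine codons, the basic residues known to relieve inhibition of the channel by protons. In C1 they mark the only run of 3 arginine codons, the known endoplasmic reticulum retention signal of GluN1. In C2 no base is marked.
N1: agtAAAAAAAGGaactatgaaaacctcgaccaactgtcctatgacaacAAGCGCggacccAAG
C1: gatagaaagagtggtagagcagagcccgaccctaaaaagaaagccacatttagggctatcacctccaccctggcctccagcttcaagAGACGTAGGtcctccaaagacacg
C2: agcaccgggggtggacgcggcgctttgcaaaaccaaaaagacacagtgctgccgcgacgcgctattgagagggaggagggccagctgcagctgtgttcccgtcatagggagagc

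Expression levels are FPKM, fragment numbers scaled to transcript length and library size, so levels can be compared between genes per length. Summed FPKM was 120208 to 158004 per mouse. The count of transcripts at 0 was 4872 to 7352 in 14 mice, 10846 in LH mouse 3 and 15504 in LH mouse 4, which also had the lowest estimated depth. Depth moved with the group: it was an estimated 20200000 to 28150000 fragments in the 4 LH mice and 27000000 to 38000000 in the 12 other mice, and its part in the LH differences was not tested. Differences of LH mice that moved by over 1.5 times without LH mice 3 and 4 are given both ways for the gene sums, the balance and the cassette shares. For single transcripts this was done where the transcript was named for a small p in that same LH comparison. Markers of the labelled tissue were present. Prox1 of the dentate gyrus averaged 9.14 FPKM, Mpped1 of CA1 27.8 and Cpne4 of CA3 20.98, while Adora2a of striatum averaged 0.104 and Pcp2 of cerebellum 0.330. Summed thalamus markers (4 of 4 measured) were 6.80 to 22.8 FPKM in LH mice and at most 10.7 in the other groups. Summed striatum markers (5 of 5 measured) were 3.62 to 3.96 FPKM in HC, 3.61 to 3.86 in Ctrl, 3.56 to 5.72 in NLH and 3.34 to 5.94 in LH mice. Summed endothelial markers (2 of 3 measured) were 3.80 to 11.8 FPKM in LH mice and at most 5.61 elsewhere. Choroid plexus markers (5 of 5) were 3.13 to 39.0 FPKM in HC, 17.2 to 51.6 in Ctrl, 4.20 to 64.4 in NLH and 2.57 to 91.6 in LH mice. The part of these markers in the results was not tested.

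By their named transcripts, Grin2a, Grin1 and Grin2b were expressed at about equal levels and far above the other subunits. The gene sum, the FPKM of a gene name added over its transcripts, averaged 42.4 for Grin2a, 40.6 for Grin1 and 39.8 for Grin2b over the 16 mice. These neighbours were not separated: Grin2a was above Grin1 in 8 of 16 mice, and Grin1 above Grin2b in 10 of 16. With the transcripts that were assembled at these loci without a gene name added, Grin2b (55.3 FPKM) was above Grin2a (50.9 FPKM), and Grin2a above Grin1 (41.9 FPKM), in 16 of 16 mice. Grin3a followed at 4.91 FPKM, 8.10-fold below Grin2b and below it in 16 of 16 mice. Grin2d, at 0.495 FPKM, was 9.92-fold below Grin3a, also in 16 of 16 mice. Of the named transcripts Grin2c was lowest at 0.325 FPKM, under Grin2d in 13 of 16 mice, but with the unnamed transcripts of its locus added it was at 3.02 to 4.75 FPKM, above Grin2d in 16 of 16 mice.

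**Figure D1:**
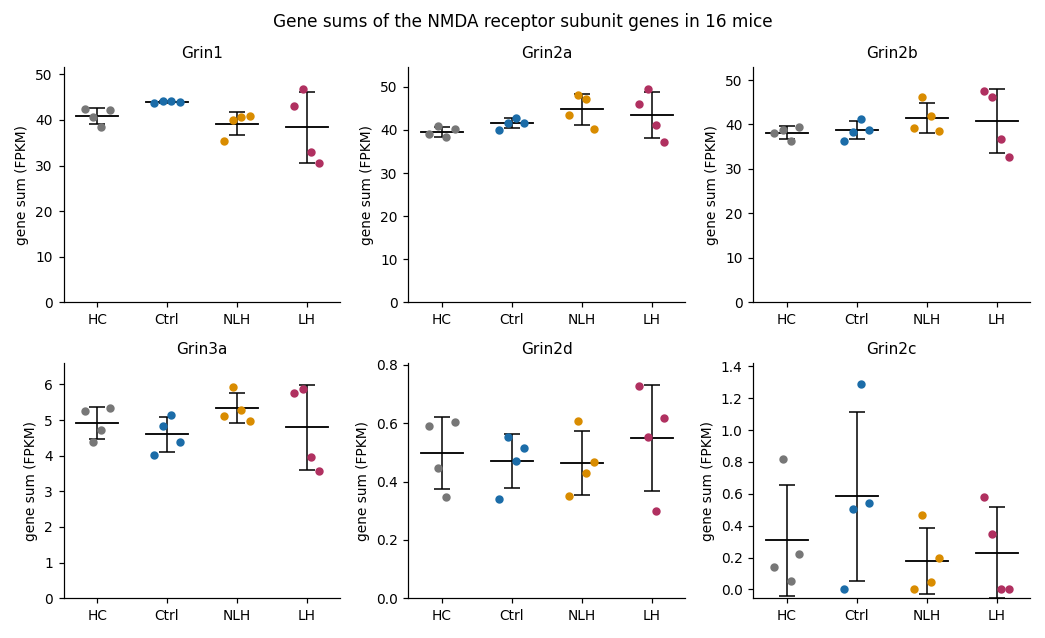
Gene sums in FPKM of the 6 subunit genes, each panel with its own axis; points are mice, lines the group mean and bars 1 SD (4 mice a group). Grin1 in Ctrl mice lies in a narrow band at 43.7 to 44.1, and LH mice spread most widely for Grin1, Grin2a, Grin2b and Grin3a.

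No subunit gene passed the test in any comparison. By limma on log2(FPKM + 0.1) with Benjamini-Hochberg adjustment over all 18287 gene names, 0 of 6 were called at an adjusted p of 0.05 in each of the 4 comparisons, and 0 of 6 also had an unadjusted p under 0.05. Over all genes, 0.0% were called in Ctrl vs. HC, 0.00547% in NLH vs. Ctrl, 0.0% for LH against Ctrl and 0.0109% for LH against NLH. An unadjusted p under 0.05 was reached by 2.7%, 5.59%, 11.5% and 7.54% of all genes in the same order. By the equal-variance test on FPKM at an unadjusted p of 0.05, the threshold of the study's methods, 1 of 6 was called in Ctrl vs. HC and 1 of 6 in NLH vs. Ctrl, Grin1 both times, and 0 of 6 for LH against either Ctrl or NLH. This test called 8.5%, 9.57%, 8.01% and 3.5% of all genes. Without LH mice 3 and 4, limma still called 0 of 6. An unadjusted p under 0.05 was then reached by 3 of 6 for LH against Ctrl and 2 of 6 for LH against NLH. Over all 18287 genes it was reached by 4447 and 2806. A p that misses the threshold does not show that levels were equal.

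By its named transcripts, Grin1, the subunit every NMDA receptor needs, separated Ctrl mice from both HC and NLH mice, and both separations ended when the 1 unnamed transcript of its locus was added. Its gene sum was 42.3, 40.7, 38.6 and 42.2 FPKM in HC mice, 43.7, 44.1, 44.1 and 43.9 in Ctrl mice, 35.3, 40.1, 40.5 and 40.9 in NLH mice and 43.1, 46.8, 33.0 and 30.5 in LH mice. Every Ctrl mouse was above every HC and every NLH mouse, whereas 1 LH mouse was above all Ctrl mice and 3 were below them. The HC mean was 40.9 ± 1.75, the Ctrl mean 44.0 ± 0.21, the NLH mean 39.2 ± 2.61 and the LH mean 38.4 ± 7.83 (SD, n = 4 mice each). Both separations gave an exact permutation p of 0.0286, two-sided, the smallest that 4 mice against 4 allow, and 0.0571 after adjustment over the 4 comparisons. Among all genes, 3.37% were wholly higher in Ctrl than in HC, and 1.3% wholly lower in NLH than in Ctrl. Groups overlapped for all 6 subunit genes when LH was set against Ctrl or NLH, where 5.69% and 2.14% of all genes did not overlap. The limma differences of Grin1 were 0.10 in Ctrl vs. HC, -0.17 in NLH vs. Ctrl, -0.22 for LH against Ctrl and -0.05 for LH against NLH on the log2 scale, each with an SE of 0.12, and adjusted p values of 1, 0.982, 0.496 and 0.940. Without LH mice 3 and 4, the LH vs. Ctrl difference was 0.03 and the LH vs. NLH difference 0.20.

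**Figure D2:**
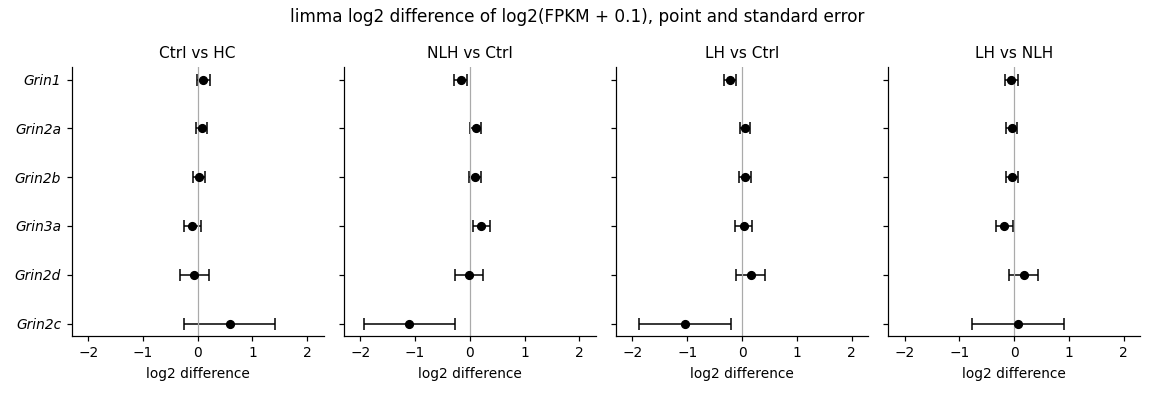
limma log2 differences of the gene sums with their standard errors, on the log2(FPKM + 0.1) scale, for the 4 comparisons (first group minus second). Points left of the line at 0 are lower in the first group; Grin1 is at -0.17 in NLH vs. Ctrl and -0.22 in LH vs. Ctrl, and Grin2c has the widest error.

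Scaling of the libraries changed how Grin1 looked in the LH group. Median-ratio size factors ran from 0.812 in LH mouse 4 to 1.19 in LH mouse 2. After division by them, Grin1 was 43.2, 42.7, 41.9 and 42.1 in HC mice, 46.7, 43.6, 44.1 and 44.2 in Ctrl mice, 36.0, 36.7, 36.0 and 42.0 in NLH mice and 37.5, 39.2, 34.9 and 37.6 in LH mice. On this scale every NLH and LH mouse lay below every Ctrl mouse, as did 3.46% of all genes for NLH and 3.96% for LH. The limma differences were then -0.25 in NLH vs. Ctrl and -0.26 in LH vs. Ctrl (SE 0.06 each), with adjusted p values of 0.206 and 0.0625, still above the threshold.

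A ratio within a library does not depend on its scaling. Grin1 divided by the sum of Grin2a and Grin2b was 0.548, 0.510, 0.517 and 0.530 in HC mice, 0.572, 0.551, 0.524 and 0.546 in Ctrl mice, 0.427, 0.425, 0.455 and 0.519 in NLH mice and 0.461, 0.489, 0.423 and 0.438 in LH mice. All 8 mice given inescapable shock were below all 4 Ctrl mice, and all 4 LH mice were also below all 4 HC mice. NLH mouse 4, at 0.519, was close to the lowest Ctrl mouse, at 0.524. This ratio was chosen after the values had been seen, so it is given as a description with no test. How often ratios of other genes separate in this way was not counted. The Grin1 ratio does not say which of the genes differed, and it moved with the transcripts added up, as given below for the loci. Bulk RNA cannot tell fewer cells of a type from less RNA per cell. The summed neuron markers (4 of 5 measured) were 443 to 468 FPKM in HC mice, 459 to 490 in Ctrl mice, 470 to 529 in NLH mice and 448 to 583 in LH mice, and their part in the ratio was not tested.

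Grin2a and Grin2b did not pass the test in any comparison. Grin2a was 39.0, 41.0, 38.3 and 40.1 FPKM in HC mice, 40.0, 41.7, 42.8 and 41.7 in Ctrl, 43.5, 48.1, 47.2 and 40.3 in NLH and 46.0, 49.6, 41.3 and 37.1 in LH. Of the NLH mice, 3 were above all Ctrl mice, and LH mice lay on both sides. The limma difference of Grin2a was 0.07 in Ctrl vs. HC, 0.10 in NLH vs. Ctrl, 0.06 for LH against Ctrl and -0.05 for LH against NLH (SE 0.09 each, adjusted p 1, 0.986, 0.860 and 0.929). Grin2b was 38.2, 38.8, 36.3 and 39.5 FPKM in HC mice, 36.3, 38.3, 41.3 and 38.8 in Ctrl, 39.2, 46.1, 42.0 and 38.5 in NLH and 47.5, 46.3, 36.8 and 32.6 in LH. All 4 groups overlapped. Its limma difference was 0.02, 0.10, 0.06 and -0.04 in the same order (SE 0.11 each, adjusted p 1, 1, 0.877 and 0.962). Without LH mice 3 and 4, the LH difference of Grin2a was 0.20 against Ctrl and 0.10 against NLH, and that of Grin2b 0.28 and 0.18 (adjusted p 0.136, 0.579, 0.0612 and 0.318).

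The balance of Grin2a to Grin2b, which rises as the hippocampus matures, was close to even in every group. The log2 ratio of the 2 gene sums was 0.03, 0.08, 0.08 and 0.02 in HC mice, 0.14, 0.12, 0.05 and 0.11 in Ctrl mice, 0.15, 0.06, 0.17 and 0.07 in NLH mice and -0.05, 0.10, 0.16 and 0.18 in LH mice. Grin2a was thus the higher gene in 15 of 16 mice, LH mouse 1 being the exception. Group means were 0.05 ± 0.03, 0.10 ± 0.04, 0.11 ± 0.06 and 0.10 ± 0.10 (SD, n = 4 mice each). The largest difference between compared groups was that of Ctrl vs. HC, 0.05 on the log2 scale (exact permutation p = 0.114, two-sided, adjusted p = 0.457 over 4 comparisons). Differences were 0.006 in NLH vs. Ctrl, -0.004 for LH against Ctrl and -0.01 for LH against NLH, with exact permutation p values of 0.857, 0.971 and 0.943, all smaller than the SD within either group. The LH difference without LH mice 3 and 4 was -0.08 against both Ctrl and NLH.

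The sign of the balance depended on which transcripts were added up. Besides the named transcripts, the authors' assembly holds 19 transcripts without a gene name at the same loci. They hold 15.5 FPKM on average at Grin2b (10 transcripts, 28.0% of the locus) and 8.59 FPKM at Grin2a (3 transcripts, 16.9%). With them added, an alternative chosen after the data had been seen, the log2 ratio was below 0 in 16 of 16 mice, from -0.19 to -0.04, so that Grin2b was the higher gene, and the ratio of Grin1 to Grin2a plus Grin2b was 0.375 to 0.417 in HC, 0.409 to 0.431 in Ctrl, 0.365 to 0.407 in NLH and 0.354 to 0.408 in LH mice. NLH and LH mice then still lay below all Ctrl mice, LH mouse 2 by a narrow margin, but LH mice no longer lay below all HC mice. Grin1 had 1 such transcript, MSTRG.37871.1, of 1.33 FPKM on average or 3.16% of the locus. It was at up to 1.67 FPKM in HC mice and up to 0.652 in Ctrl mice, at 3.13, 4.58, 0.864 and 1.90 in NLH mice, and at 0.156, 3.85e-07, 3.36 and 3.61 in LH mice. Every NLH mouse was above every Ctrl mouse, a separation that 2.9% of all transcripts showed in this direction, and the difference was 3.10 on the log2(FPKM + 0.1) scale (SE 1.26, adjusted p = 0.891 by limma). The LH vs. Ctrl difference was 1.48 (adjusted p = 0.668), or -0.76 without LH mice 3 and 4, and that between LH and NLH was -1.62 (adjusted p = 0.691), or -3.86 without them. With this transcript added, Ctrl mice (43.7 to 44.8 FPKM) no longer lay wholly above the NLH mice (up to 44.7) or the HC mice (up to 43.9), so both separations of Grin1 ended.

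**Figure D3:**
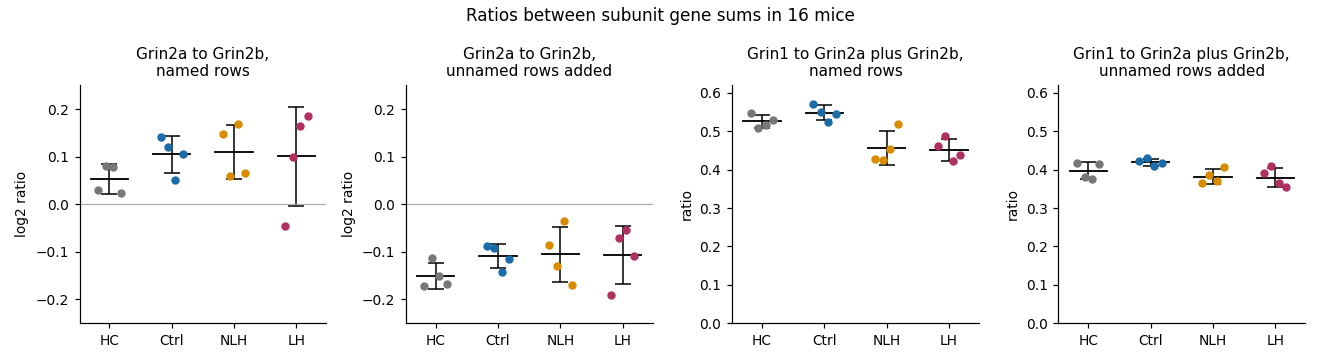
Log2 ratio of Grin2a to Grin2b (left pair) and ratio of Grin1 to the sum of Grin2a and Grin2b (right pair) by mouse, from named transcripts and with unnamed assembled transcripts of the loci added; lines are group means and bars 1 SD (4 mice a group). Adding the unnamed transcripts moves the Grin2a to Grin2b ratio below 0 in 16 of 16 mice, and NLH and LH mice lie below Ctrl mice in the Grin1 ratio.

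Among single transcripts, Grin1-206 had the smallest p of the 31 in Ctrl vs. HC. It encodes the GluN1 form without N1, with C1 and with C2′ (922 codons) and was the most abundant Grin1 transcript, at 12.0 FPKM on average. Its level was 9.02, 9.43, 9.46 and 9.45 FPKM in HC mice, 13.2, 13.0, 11.6 and 12.5 in Ctrl, 10.4, 12.7, 13.2 and 12.3 in NLH and 15.1, 13.9, 13.0 and 13.1 in LH. All 12 mice that had been given shocks were above all 4 HC mice, as in 121 of all 80137 transcripts (0.151%), a count made after the values had been seen. The Ctrl vs. HC difference was 0.43 on the log2 scale (SE 0.09), with an unadjusted p of 0.000231 but an adjusted p of 1 by limma over 80137 transcripts. Differences among the shocked groups were -0.05 in NLH vs. Ctrl, 0.12 for LH against Ctrl and 0.18 for LH against NLH (adjusted p 1, 0.614 and 0.591).

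Across all 31 transcripts of the 6 genes, 0 were called at an adjusted p of 0.05 in each comparison, the smallest adjusted p being 0.383 in LH vs. Ctrl. Over all transcripts, limma called 0.00374% in Ctrl vs. HC, 0.0125% in NLH vs. Ctrl, 0.0462% for LH against Ctrl and 0.0412% for LH against NLH. An unadjusted p under 0.05 was found for 1 of 31 in Ctrl vs. HC (higher), 1 in NLH vs. Ctrl (higher), 3 for LH against Ctrl (all lower) and 2 for LH against NLH (both lower), beside 3.45%, 5.12%, 10.7% and 8.72% of all transcripts. The equal-variance test called 1, 1, 0 and 2 of 31, beside 6.68%, 7.2%, 7.69% and 4.47% of all transcripts. Groups did not overlap for 1 transcript of 31 in Ctrl vs. HC (higher, 2.56% of all transcripts), 1 in NLH vs. Ctrl (higher, 2.9%), 0 for LH against Ctrl (5.93% in either direction) and 1 for LH against NLH (lower, 2.28%). The separated transcripts were Grin1-206 in Ctrl vs. HC, Grin2b-206 in NLH vs. Ctrl and Grin3a-203 in LH vs. NLH. Grin2b-206 was practically 0 in all mice but NLH mouse 4, at 0.356 FPKM, so its separation rests on values that cannot be told from 0. The equal-variance test called Grin1-206 in Ctrl vs. HC, Grin2a-201 in NLH vs. Ctrl, and Grin2a-201 and Grin3a-203 in LH vs. NLH. Without LH mice 3 and 4, limma still called 0 of 31. An unadjusted p under 0.05 was then reached by 8 of 31 for LH against Ctrl and 8 of 31 for LH against NLH. Over all 80137 transcripts it was reached by 11422 and 8891.

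The other Grin1 coding transcripts were not called in any comparison. Grin1-201 (C1 and C2) averaged 7.08 FPKM and was 7.32, 9.65, 7.79 and 6.48 in HC mice, 7.36, 7.51, 9.01 and 8.97 in Ctrl, 5.12, 6.36, 7.80 and 6.94 in NLH and 8.91, 9.62, 3.66 and 0.776 in LH. LH mouse 2 was above all Ctrl mice, and LH mouse 4 was far below all others. Grin1-202 (C2 only) averaged 5.40 FPKM, Grin1-205 (C2′ only) 5.60 and Grin1-207 (N1 and C2′) 4.67. Grin1-205 was at 4.38 to 9.93 FPKM in HC, 5.62 to 7.96 in Ctrl, 1.34 to 5.95 in NLH and 0.102 to 7.50 in LH mice. Its mean differed by -2.77 FPKM in NLH vs. Ctrl (exact permutation p = 0.0571, two-sided, 0.229 adjusted over 4 comparisons). The Ctrl vs. HC difference of Grin1-202 was -0.24 (SE 0.16, adjusted p = 1). The other 3 N1 forms, Grin1-203, Grin1-204 and Grin1-208, were at 0.138, 0.360 and 0.432 FPKM in LH mouse 1 and at most 0.0162 in the other 15 mice, where N1 was carried almost wholly by Grin1-207. These transcripts share most of their exons, 91.4% to 98.3% of the bases of Grin1-201, Grin1-202, Grin1-205 and Grin1-207 lying in exons of Grin1-206, and their division among forms is Cufflinks' estimate.

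Cassette shares, the percent of coding Grin1 FPKM in transcripts with a cassette, add up the same transcript estimates by cassette. They are shares of RNA, and GluN1 protein was not measured. C2 was held by 37.8, 44.1, 43.0 and 39.6% in HC mice, 33.9, 34.0, 37.2 and 37.6% in Ctrl mice, 39.8, 32.3, 36.0 and 35.6% in NLH mice and 34.3, 37.03, 29.9 and 18.8% in LH mice. Every Ctrl mouse was below every HC mouse. Among shares of single transcripts in their gene, 1069 of 44999 were wholly lower in Ctrl than in HC. The C2 means were 41.1 ± 2.9% in HC and 35.7 ± 2.0% in Ctrl (SD, n = 4 mice each). Their difference was -5.44 points (exact permutation p = 0.0286, two-sided, the smallest possible, and 0.114 adjusted over 4 comparisons). With mice of the same number as a block, the exact sign-flip p was 0.125, the smallest 4 pairs allow. The LH difference in C2 without LH mice 3 and 4 was -0.0306 points against Ctrl and -0.282 against NLH, and without 1 mouse at a time it ran from -8.04 to -1.94 and from -8.29 to -2.19. With all mice, C2 differed by 0.251 points in NLH vs. Ctrl, -5.69 for LH against Ctrl and -5.94 for LH against NLH, with exact permutation p values of 0.886, 0.229 and 0.200.

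C1, the cassette with the arginine run shown above, was in 44.3% or more of coding Grin1 FPKM in every mouse. Its share was 45.6, 56.9, 55.0 and 44.3% in HC mice, 56.1, 54.9, 54.3 and 56.4% in Ctrl, 51.8, 54.0, 59.0 and 56.9% in NLH and 63.5, 54.6, 59.0 and 56.9% in LH, with overlap in all comparisons and a smallest exact permutation p of 0.143 (LH vs. Ctrl, 3.09 points, and 1.42 to 4.38 points with 1 mouse left out at a time). N1 was held by 9.34, 13.8, 12.9 and 11.7% in HC mice, 11.1, 10.0, 13.3 and 14.8% in Ctrl, 21.004, 16.5, 10.2 and 16.2% in NLH and 16.2, 13.3, 23.7 and 4.19% in LH. The highest and the lowest N1 share both came from the LH group, from mice 3 and 4. The smallest exact permutation p for N1 was 0.171, in NLH vs. Ctrl (3.66 points, and 1.98 to 5.58 with 1 mouse left out at a time).

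**Figure D4:**
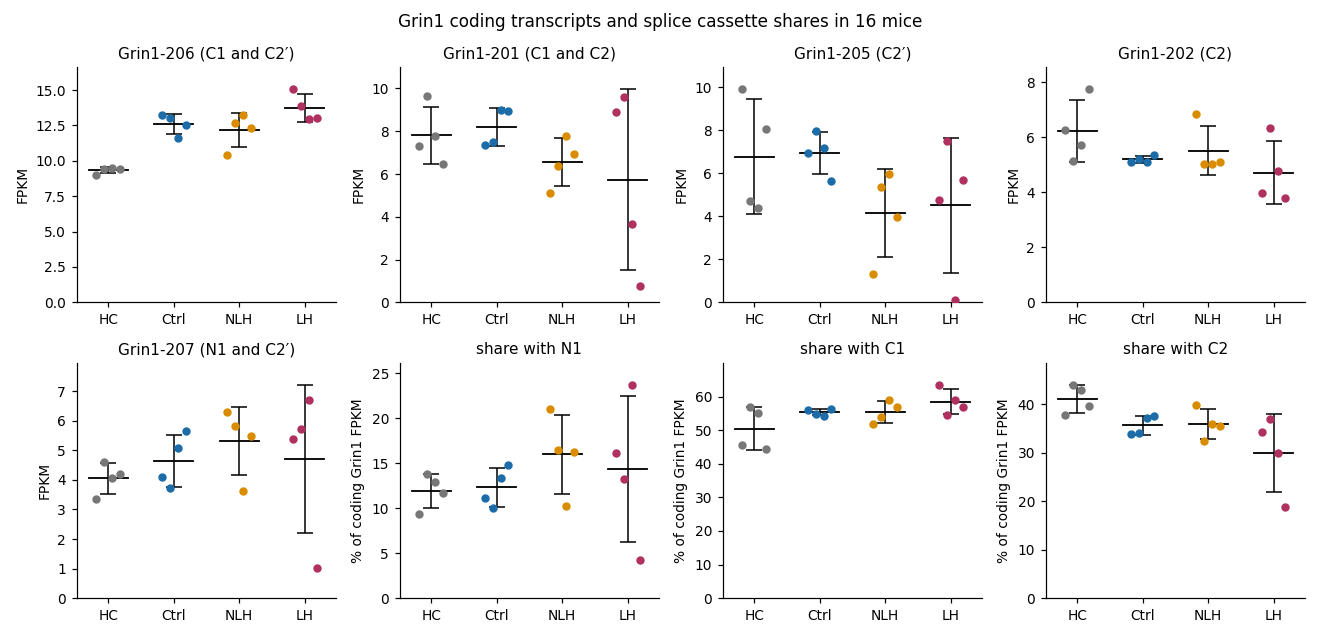
FPKM of the 5 detected coding Grin1 transcripts, with the cassettes each carries, and the percent of coding Grin1 FPKM that carries N1, C1 or C2, by mouse; lines are group means and bars 1 SD (4 mice a group). Grin1-206 is at 9.02 to 9.46 in HC mice and above 10 in all others, and the share with C2 is lower in every Ctrl than in every HC mouse.

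The summed level of the 5 Grin1 transcripts typed as noncoding was lower in 3 of 4 NLH mice and 3 of 4 LH mice than in any Ctrl mouse, and both groups overlapped Ctrl. It was 6.23 to 7.15 FPKM in HC, 5.83 to 6.92 in Ctrl, 5.31, 4.84, 4.89 and 7.01 in NLH mice, and 4.04, 3.78, 4.85 and 6.18 in LH mice. Grin1-211 was 2.70, 2.78, 3.14 and 2.57 FPKM in Ctrl mice, 2.40, 2.53, 2.57 and 3.17 in NLH mice and 2.03, 1.83, 1.68 and 2.98 in LH mice. Here too both groups overlapped Ctrl. The differences of Grin1-211 were -0.41 for LH against Ctrl (SE 0.16, adjusted p = 0.383 by limma) and -0.34 for LH against NLH (adjusted p = 0.565). Grin1-214 was at 2.20, 1.91, 1.74 and 1.53 FPKM in Ctrl mice and 1.23, 1.64, 1.40 and 1.90 in NLH mice, against 1.19, 1.21, 1.09 and 1.81 in LH mice (difference -0.46, SE 0.19, adjusted p = 0.401). Summed over each locus, the unnamed transcripts at Grin2b and at Grin2a also overlapped between the groups. At Grin2b they summed to 15.6 to 17.8 FPKM in HC mice, 15.2 to 17.0 in Ctrl mice, 14.9, 14.4, 14.7 and 17.1 in NLH mice and 11.6, 12.4, 14.0 and 17.4 in LH mice, and at Grin2a to 8.76 to 10.97 in HC mice, 8.55 to 10.1 in Ctrl mice, 7.56, 7.20, 8.06 and 9.17 in NLH mice and 5.71, 6.37, 7.68 and 9.29 in LH mice. Single ones did not all overlap. MSTRG.27251.1 and MSTRG.27251.5 of Grin2a and MSTRG.61829.1 and MSTRG.61829.5 of Grin2b were lower in every LH than in every Ctrl and HC mouse. Between LH and Ctrl, 2820 of 79168 transcripts were wholly lower in LH. MSTRG.27251.5 was also lower in every NLH than in every Ctrl mouse, as were 1715 of 79357 transcripts. Of the 19 unnamed transcripts at the 4 loci, 0 were called by limma in any comparison. An unadjusted p under 0.05 was reached by 0 in Ctrl vs. HC, 1 in NLH vs. Ctrl, 5 for LH against Ctrl and 2 for LH against NLH. Over all transcripts it was reached by 3.45%, 5.12%, 10.7% and 8.72%. Among these 5 were all 3 of Grin2a, each lower in LH. The smallest adjusted p in these comparisons was 1, 0.891, 0.169 and 0.442. Without LH mice 3 and 4, more of the 19 had an unadjusted p under 0.05 for LH against Ctrl. So did 11422 of all 80137 transcripts. The smallest adjusted p by limma was then 0.0536 (MSTRG.61829.16, difference -0.58), still above the threshold.

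Grin1os (ENSMUSG00000085830.1, chr2:25291220-25298925), the gene antisense to Grin1, lies over its 3′ part. Of its 2891 exonic bases, 1307 (45.2%) overlap exons of coding Grin1 transcripts, and the sources do not say whether the libraries kept strand, so reads of the overlap cannot be assigned with certainty. It was at 1.47 to 2.13 FPKM in HC mice, 1.23 to 1.56 in Ctrl mice, 0.815 to 1.84 in NLH mice and 0.717 to 1.15 in LH mice. LH mice lay wholly below Ctrl mice, as in 1.56% of all genes, while NLH mice overlapped both (LH vs. Ctrl exact permutation p = 0.0286, two-sided, 0.114 adjusted over 4 comparisons). The LH vs. Ctrl difference was -0.56 (SE 0.22, adjusted p = 0.337 by limma over all gene names).

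Grin2a was almost wholly Grin2a-206, a transcript of 14634 bases at 40.0 FPKM on average, and Grin2b almost wholly Grin2b-201, of 24060 bases at 37.7 FPKM. Grin2a-201, of 4395 bases, has the same coding exons as Grin2a-206 and lies entirely within its exons. It was at 8.28, 4.82 and 6.15 FPKM in NLH mice 2 to 4 but at 1.38e-28 in NLH mouse 1, and at most 1.98 FPKM in any mouse of the other groups. Its differences were 3.52 in NLH vs. Ctrl and -3.52 in LH vs. NLH (SE 1.499 each, adjusted p 0.914 and 0.537 by limma). Grin2a-206 was at 38.5, 41.2 and 33.8 FPKM in the same 3 NLH mice and 43.2 in NLH mouse 1. The 2 transcripts encode the same protein, so these values concern untranslated sequence or the estimate that divides their shared reads. Of the shorter Grin2b transcripts, Grin2b-205 averaged 1.22 FPKM. Grin2b-204, of 703 bases with 35 codons, was at 0.797 to 1.44 FPKM in NLH mice and from 1.9e-143 to 1.47 elsewhere, with differences of 1.68 in NLH vs. Ctrl (SE 0.98, adjusted p = 0.994) and -2.05 in LH vs. NLH (adjusted p = 0.579). The latter was -0.41 without LH mice 3 and 4.

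Grin3a gave its level mainly through Grin3a-201, at 3.48 FPKM on average. The gene sum was 5.26, 4.38, 4.72 and 5.33 FPKM in HC mice, 4.02, 4.85, 5.15 and 4.37 in Ctrl, 5.11, 5.93, 5.29 and 4.98 in NLH and 5.77, 5.87, 3.96 and 3.57 in LH. LH mice 1 and 2 were above all Ctrl mice, and LH mice 3 and 4 below them. The limma differences were -0.10, 0.21, 0.03 and -0.18 in Ctrl vs. HC, NLH vs. Ctrl, LH vs. Ctrl and LH vs. NLH (SE 0.16 each, adjusted p 1, 0.982, 0.972 and 0.796). Without LH mice 3 and 4, the LH difference of Grin3a was 0.34 against Ctrl and 0.13 against NLH (adjusted p 0.107 and 0.641). Grin3a-201 differed by 0.27 in NLH vs. Ctrl (SE 0.16, adjusted p = 0.994). Grin3a-202, of 1135 codons where Grin3a-201 has 1115, was 0.652, 1.06, 1.12 and 0.434 FPKM in Ctrl mice and 0.408, 0.923, 0.209 and 9.15e-06 in LH mice, with a difference of -1.29 (SE 0.55, adjusted p = 0.429). This difference was -0.27 without LH mice 3 and 4. The noncoding Grin3a-203 was the transcript without overlap in LH vs. NLH, 0.315 to 0.557 FPKM in LH and 0.559 to 0.855 in NLH mice.

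Grin2c and Grin2d were the lowest of the 6 genes by their named transcripts. Grin2d was 0.592, 0.445, 0.347 and 0.603 FPKM in HC mice, 0.340, 0.552, 0.471 and 0.514 in Ctrl, 0.349, 0.609, 0.430 and 0.467 in NLH and 0.729, 0.554, 0.299 and 0.618 in LH, and all groups overlapped. Its limma differences were -0.06, -0.02, 0.16 and 0.17 (SE 0.26 each, adjusted p 1, 1, 0.864 and 0.895), and its main transcripts Grin2d-201 and Grin2d-203 averaged 0.323 and 0.151 FPKM. Grin2c ranged from 0.0531 to 0.820 FPKM in HC mice, from 1.58e-10 to 1.29 in Ctrl, from 0.000215 to 0.464 in NLH and from 4.40e-38 to 0.580 in LH. Differences of 0.58, -1.11, -1.04 and 0.07 carried an SE of 0.83 each (adjusted p 1, 0.982, 0.670 and 1). With the unnamed transcripts of the locus added they were 0.03, -0.04, -0.14 and -0.10 (SE 0.14 each, adjusted p 1, 1, 0.714 and 0.893). From named transcripts without LH mice 3 and 4, the LH differences were 0.39 against Ctrl and 0.40 against NLH for Grin2d, and 0.19 and 1.30 for Grin2c. Of the named Grin2c transcripts, Grin2c-201 averaged 0.300 FPKM (Ctrl vs. HC 0.99, SE 0.94, adjusted p = 1), and Grin2c-202 0.0260. The 5 unnamed transcripts of the Grin2c locus held 3.57 FPKM on average, 91.6% of the locus. Their sum ranged from 3.02 to 4.70 FPKM in the 16 mice. Of the 5, MSTRG.13774.1, named after its values were seen, was at 1.25 to 1.44 FPKM in HC, 1.42 to 1.59 in Ctrl and 1.16 to 1.53 in NLH mice, and at 1.17, 0.962, 1.08 and 0.8294 in LH mice. All LH mice were below all HC and Ctrl mice and overlapped NLH mice. Against Ctrl alone, LH mice were wholly lower for 2820 of 79168 transcripts. How many transcripts were below both HC and Ctrl was not counted. Its difference was -0.56 for LH against Ctrl (SE 0.14, adjusted p = 0.169 by limma) and -0.41 for LH against NLH (adjusted p = 0.442), so it was not called.

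**Figure D5:**
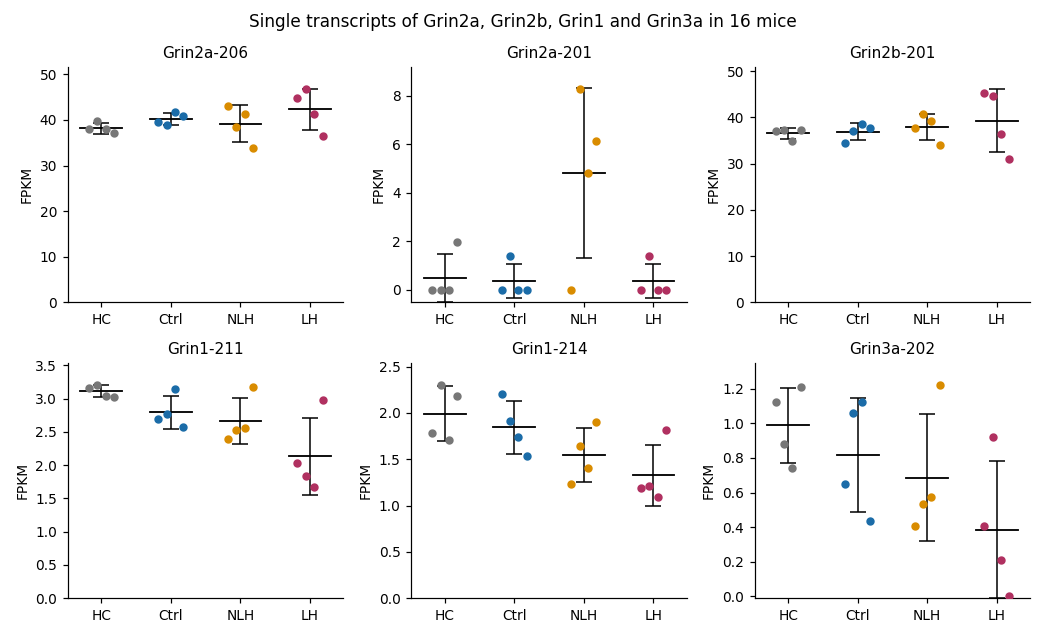
FPKM by mouse of Grin2a-206, Grin2a-201, Grin2b-201, Grin1-211, Grin1-214 and Grin3a-202, each panel with its own axis; lines are group means and bars 1 SD (4 mice a group). Grin2a-201 is high in 3 NLH mice only, at 4.82 to 8.28, and for Grin1-211 mice 1 to 3 of both NLH and LH are below all Ctrl mice.

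The share of each transcript in its gene was fitted for 26 transcripts, those of Grin2c and Grin2d being left out because their gene means are under 1 FPKM. None of 26 was called in any comparison (limma, smallest adjusted p 0.336), beside 0.0%, 0.0155%, 0.0622% and 0.08% of all shares. An unadjusted p under 0.05 was found for 1, 2, 3 and 3 of 26, beside 3.51%, 5.3%, 11.3% and 9.56% of all shares. These were Grin1-206 in Ctrl vs. HC, Grin2a-206 and Grin2a-201 in NLH vs. Ctrl, Grin1-206, Grin3a-201 and Grin3a-202 in LH vs. Ctrl, and Grin2a-206, Grin2a-201 and Grin2b-204 in LH vs. NLH. The share of Grin2a-206 in Grin2a differed by -0.15 on the log2 scale in NLH vs. Ctrl (SE 0.06, adjusted p = 0.849) and by 0.16 in LH vs. NLH (adjusted p = 0.402). The share of Grin1-206 in Grin1 differed by 0.32 in Ctrl vs. HC (SE 0.15, adjusted p = 1).

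Other genes of the pathway showed no call either. A list of 54 genes for glutamate and co-agonist supply, scaffolds, kinases and phosphatases, transport and downstream signalling had 53 measured members, of which 0 passed the adjusted threshold in each comparison. An unadjusted p under 0.05 was reached by 3 (all higher) in Ctrl vs. HC, 5 (4 higher, 1 lower) in NLH vs. Ctrl, 8 (6 higher, 2 lower) for LH against Ctrl and 1 (lower) for LH against NLH. These are 5.66%, 9.43%, 15.1% and 1.89% of the list, beside 2.7%, 5.59%, 11.5% and 7.54% of all genes. The list's median difference was 0.08, 0.0006, -0.06 and -0.06, beside 0.02, 0.06, 0 and -0.06 over all genes. Without LH mice 3 and 4, an unadjusted p under 0.05 was reached by 22 of 53 for LH against Ctrl and 14 of 53 for LH against NLH. Over all 18287 genes it was reached by 4447 and 2806.

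Of the supply genes, Dao, which degrades D-serine, differed by 0.75 in Ctrl vs. HC (SE 0.30, adjusted p = 1), at a mean of 0.220 FPKM in Ctrl and 0.0960 in HC. The kinase Dapk1, which binds GluN2B, differed by 0.29 in the same comparison (10.2 ± 0.29 in Ctrl and 8.28 ± 0.42 FPKM in HC, SD, n = 4 mice each, adjusted p = 1 by limma). Of the 15 scaffold and auxiliary genes measured, Neto1, an auxiliary protein of NMDA and kainate receptors, differed by 0.55 in NLH vs. Ctrl (adjusted p = 0.734) and by -0.71 in LH vs. NLH (adjusted p = 0.450), from means of 5.60 FPKM in Ctrl, 8.42 in NLH and 5.07 in LH. Lin7a and Dlg2, which help anchor the receptor at the synapse, differed by 0.36 and 0.33 in LH vs. Ctrl (adjusted p 0.233 and 0.262). The calcineurin subunit Ppp3cb differed by 0.25 in LH vs. NLH (adjusted p = 0.698).

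The genes whose gene sums ran most closely with each subunit over the 16 mice were different for the 6 genes. By Pearson's r on log2(gene sum + 0.1), among 10435 or 10436 gene names with a mean of at least 1 FPKM, they were Rnft2 (0.957), Tmem119 (0.956) and Spr (0.954) for Grin1. For Grin2a they were Zfp106 (0.954), Dpp8 (0.950) and Rab22a (0.948), for Grin2b Dpysl2 (0.953), Syn2 (0.948) and Rab6b (0.943), and for Grin3a Osbpl2 (0.959), Ppm1a (0.932) and Sec24b (0.930). For Grin2c they were St6galnac6 (0.855), Pianp (0.805) and Supt7l (0.805), and for Grin2d Cbarp (0.853), Man2b1 (0.846) and Zdhhc5 (0.832). The 16 points share library scaling and group, so these values are descriptions.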

How the data were processed

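Total RNA libraries of the hippocampus, 1 per mouse, were analysed from FPKM values per transcript that the authors computed with Cufflinks and deposited for 16 mice. The processing notes name STAR 2.42a, StringTie 1.2.3 and build mm10, whereas the study's methods name HISAT2 as aligner, and strand is not given in the sources used here. FPKM holds no counts, so depth was estimated from the size of 1 fragment's step at 1343 loci of a single transcript, with an assumed fragment length of 200 bases. 62.8% to 68.0% of these values came within 0.1 of whole, so the depth is approximate and no counting intervals are given.

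Gene sums and transcripts were fitted as log2(FPKM + 0.1). Shares were fitted as log2 of transcript FPKM + 0.1 over gene sum + 0.1, for genes with several transcripts and a mean of at least 1 FPKM. The fits used limma 3.58.1 in R 4.3.3 (4 group means, all 16 mice, trend and robust options), with Benjamini-Hochberg adjustment over all features at 0.05. A fold change on the log2(FPKM + 0.1) scale understates the change of low genes. Single values were compared by exact permutation (scipy 1.17.1, two-sided). Scripts were tested on simulated data. Annotation and sequences came from GENCODE vM21, which holds 31 of 31 member transcripts.

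The named genes were the 6 members, Grin1os, in each comparison the 2 pathway genes of smallest limma p, and the 3 genes most like each member. Some items of the pathway list are not reported here by name. Named transcripts were the 2 with the highest mean of each gene and, of those averaging at least 0.1 FPKM, the 3 with the smallest p in each comparison. Grin1-203, Grin1-204, Grin1-205, Grin1-207, Grin1-208, Grin2b-206, Grin3a-203, the MSTRG transcripts and the pathway genes called only under an alternative were added after their values were seen. The Grin1 ratio was chosen after its values were seen. The members and lists were chosen with earlier results of these data known. Alternatives were the pseudocount, a filter on low values, size factors, the equal-variance test, leaving out mice (LH mice 3 and 4 for the cassette shares only after the data had been seen), a replicate block and unnamed transcripts. Nothing in the sources pairs mice by number: same-numbered mice deviated together with a median r of -0.023 over 24 pairs.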

Additional observations from a re-analysis of the deposited data

Results flagged for a closer look

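In 14 of 104 groups of 4 mice examined, 1 mouse lay far from the other 3. Chance gives about 1 group in 20 for normally distributed values, a rate that does not hold for groups of values near 0, such as those of Grin2a-201 and Grin2c-202. For the Grin1 gene sum it was NLH mouse 1, at 35.3 FPKM. Among Grin1 transcripts these were Grin1-202 in NLH mouse 1 (6.83 FPKM), Grin1-206 in HC mouse 1 (9.02 FPKM) and Grin1-214 in LH mouse 4 (1.81 FPKM). Grin2a-201 stood out in HC mouse 4 (1.98 FPKM), Ctrl mouse 2 (1.40 FPKM) and LH mouse 2 (1.40 FPKM), and Grin2b-201 in HC mouse 3 (34.8 FPKM). Grin2c-201 stood out in HC mouse 2 (0.820 FPKM), and Grin2c-202 in Ctrl mouse 3 (0.136 FPKM), NLH mouse 3 (0.0484 FPKM) and LH mouse 2 (7.71e-12 FPKM), the last a value that is practically 0. Grin2d-203 stood out in NLH mouse 2 (0.228 FPKM) and LH mouse 1 (0.301 FPKM).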

How the results depend on the processing

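By the equal-variance test at an unadjusted p of 0.05, calls rose from 0 to 1 gene sum in Ctrl vs. HC and 1 in NLH vs. Ctrl. Transcripts called rose to 1, 1 and 2 in Ctrl vs. HC, NLH vs. Ctrl and LH vs. NLH. Pathway genes called rose to 8, 7, 5 and 1 of 53 in the 4 comparisons, beside 8.5%, 9.57%, 8.01% and 3.5% of all genes. With size factors 1 pathway gene was called in NLH vs. Ctrl (Calm3, lower, beside 0.0383% of all genes) and 2 in LH vs. Ctrl (Calm3 and Camk2a, lower, beside 0.268% of all genes). Without LH mice 3 and 4, 5 were called in LH vs. Ctrl (all higher, among them Dlg2, Homer1, Lin7a and Lin7c), beside 989 of all 18287 genes (5.41%, 951 of them higher) and a median over all genes of 0.19. The cause was not tested.

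Signs turned for several differences that had not passed the test. Without LH mice 3 and 4 these became 0.0312 (Grin1, LH vs. Ctrl), 0.198 (Grin1, LH vs. NLH), 0.0962 (Grin2a, LH vs. NLH), 0.180 (Grin2b, LH vs. NLH), 0.191 (Grin2c, LH vs. Ctrl, from -1.04) and 0.129 (Grin3a, LH vs. NLH). With unnamed transcripts they became -0.00289 (Grin2a, LH vs. Ctrl), -0.00723 and -0.00586 (Grin2b, Ctrl vs. HC and LH vs. Ctrl), -0.104 (Grin2c, LH vs. NLH) and 0.00298 (balance, LH vs. Ctrl). With size factors they became -0.0136 and 0.00194 (Grin2b, Ctrl vs. HC and LH vs. NLH) and -0.0107 (Grin3a, LH vs. Ctrl), and with a pseudocount of 0.01 -0.374 (Grin2c, LH vs. NLH). From the most abundant transcript alone, the balance differed by -0.0806 between NLH and Ctrl and by 0.0743 between LH and NLH. The cause was not tested.

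With mice of the same number as a replicate block, C2 in Ctrl vs. HC stayed at -5.44 points with an exact sign-flip p of 0.125, the smallest 4 pairs allow. With 1 mouse left out at a time it ran from -6.54 to -4.46 points, and 7 mice cannot go below an exact p of 0.0571. Over the same omissions N1 ran from -0.467 to 1.16 points in Ctrl vs. HC, -1.11 to 5.41 in LH vs. Ctrl and -4.76 to 1.75 in LH vs. NLH. In NLH vs. Ctrl, C1 ran from -1.19 to 1.23 and C2 from -1.05 to 1.45. The balance ran from -0.0137 to 0.0232 in NLH vs. Ctrl, -0.0322 to 0.0444 in LH vs. Ctrl and -0.0382 to 0.0384 in LH vs. NLH. Gene differences that turned ran from -0.155 to 0.0509 (Grin1, LH vs. NLH), -0.00885 to 0.130 and -0.113 to 0.0261 (Grin2a, LH vs. Ctrl and LH vs. NLH), -0.0141 to 0.0477, -0.0174 to 0.162 and -0.115 to 0.0643 (Grin2b, Ctrl vs. HC, LH vs. Ctrl and LH vs. NLH), -0.444 to 0.513 (Grin2c, LH vs. NLH), -0.190 to 0.0596 and -0.137 to 0.0848 (Grin2d, Ctrl vs. HC and NLH vs. Ctrl) and -0.0765 to 0.158 (Grin3a, LH vs. Ctrl).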
